A study of Mus musculus with 27 samples.

Results

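The brains of colonized mice were compared with those of germ-free mice at postnatal day 20 (P20), in hippocampus, cortex and cerebellum. The pools were chosen by their labels, as every pool of that age, and came to 9 of the 27 pools of the series: 3 from germ-free mice and 6 from colonized mice. Each of the 6 colonized pools was compared with the germ-free pool of its own region, so the 2 comparisons of a region shared their control.

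All mice were outbred Swiss Webster animals from a germ-free colony, and each pool joined RNA from 5 male pups. GF pups were given sterile saline by mouth and stayed free of microbes. CONV (conventionalized) pups were given the same saline, and took up a complex community from dams gavaged with feces of specific pathogen free mice and from soiled bedding of such mice. BIF pups were given 4 bifidobacteria by mouth, namely Bifidobacterium dentium, B. bifidum, B. breve and B. longum subsp. infantis. Their dams were gavaged with the same bacteria, which were also given in the drinking water. Each treatment had an isolator of its own, so treatment and isolator cannot be told apart. Transcripts were measured by quantitative PCR on an array of 84 genes of synaptic plasticity with 5 reference genes, and the 3 pools of a region were run together at this age. With 1 pool per group there was no replicate, no test was made and no p-value is given, and each difference below is between 2 pools.

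Synaptic plasticity is the change in strength of a synapse with use. Glutamate acting on AMPA, NMDA and metabotropic receptors starts it, kinases, phosphatases and cyclic AMP carry the signal, and immediate early genes such as Fos, Arc and the Egr family are transcribed within minutes of activity. Their products and secreted factors, among them neurotrophins and extracellular proteases, then reshape the synapse, and in rodents the weeks after birth are a time of intense synapse formation and pruning.

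The value of a gene in a pool was its threshold cycle (CT) minus that of Gapdh, called delta CT and counted in PCR cycles, so that a lower delta CT is more transcript and 1 cycle is a doubling. By markers of cerebellar granule cells and of the forebrain, the regions carried the marks of their labels. Grm4, a metabotropic glutamate receptor of cerebellar granule cells, had a delta CT of 1.44 in GF cerebellum, 7.53 in GF hippocampus and 6.63 in GF cortex. Grin2c, an NMDA receptor subunit of the same cells, had 4.07 in GF cerebellum, 7.74 in GF hippocampus and 7.57 in GF cortex. Camk2a, a kinase abundant in excitatory neurons of the forebrain, ran the other way, with -0.81 in GF hippocampus, -0.56 in GF cortex and 4.72 in GF cerebellum. In such tissue, fewer cells of a type and less RNA per cell cannot be told apart.

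Precision was set by single wells. In the reverse transcription and PCR control wells, each present 3 times in a pool, the SD of a CT was 0.161 cycles, and it was 0.104 cycles without the reverse transcription wells of the CONV cortex pool, of which 1 read 21.88 where its neighbours read 20.96 and 20.97. A log2 fold change combines 4 CTs, for an SD of 0.321, or 0.209 without that set. Calls were made at 1.5-fold, a log2 fold change of 0.585. Of 52 calls with Gapdh in the 6 comparisons, 42 lay past 2 SD at the larger estimate, 0.64. All 52 lay past the smaller, 0.42, but that is below the limit for a call, so every call passes it by construction. Scatter between mice is not part of these figures, nor is scatter at high CTs, since the control wells read between 19.51 and 21.88 cycles. Over the 6 comparisons together, calls were more frequent in weak genes: 10 of 35 values with a mean CT of 30 or more were called (28.6%), against 25 of 210 between 25 and 30 (11.9%) and 17 of 259 below 25 (6.56%). Of the 10, 5 came from BIF cerebellum, with 5 of 9 called at 30 or more (55.6%) and 0 of 39 below 25 (0%). Single comparisons did not all follow, with 0 of 6 at 30 or more in BIF hippocampus (0%). BIF cortex followed at 30 or more, with 2 of 3 called (66.7%). Below 30 it did not, with 8 of 45 below 25 (17.8%) against 4 of 36 between 25 and 30 (11.1%).

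The reference moved the counts. Against the other 4 reference genes (Actb, B2m, Gusb and Hsp90ab1), Gapdh shifted by 0.43 cycles in BIF cortex, 0.41 in BIF cerebellum, -0.26 in CONV hippocampus, 0.15 in CONV cortex, 0.09 in CONV cerebellum and 0.06 in BIF hippocampus, each relative to GF. The middle value of the log2 fold changes over all 84 genes followed, at 0.30 in BIF cortex, 0.23 in BIF cerebellum, -0.26 in CONV hippocampus, 0.14 in CONV cortex, -0.01 in CONV cerebellum and 0.05 in BIF hippocampus. With the mean of the 5 reference genes these medians were -0.04, -0.10, -0.05, 0.01, -0.08 and 0.00, in that order. Most of the general rise in BIF cortex and BIF cerebellum, and of the general fall in CONV hippocampus, was thus absent with the 5 genes. The references were not all steady among themselves: B2m was 1.77-fold higher in BIF cortex than in GF with Gapdh, past the limit for a call, where the other 3 were between 1.13-fold and 1.32-fold. All 5 reference genes had higher CTs in BIF cerebellum than in GF, by 0.27 to 0.81 cycles. Its genomic DNA control well, at the limit of 35 in most P20 pools, read 33.81.

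**Figure D1:**
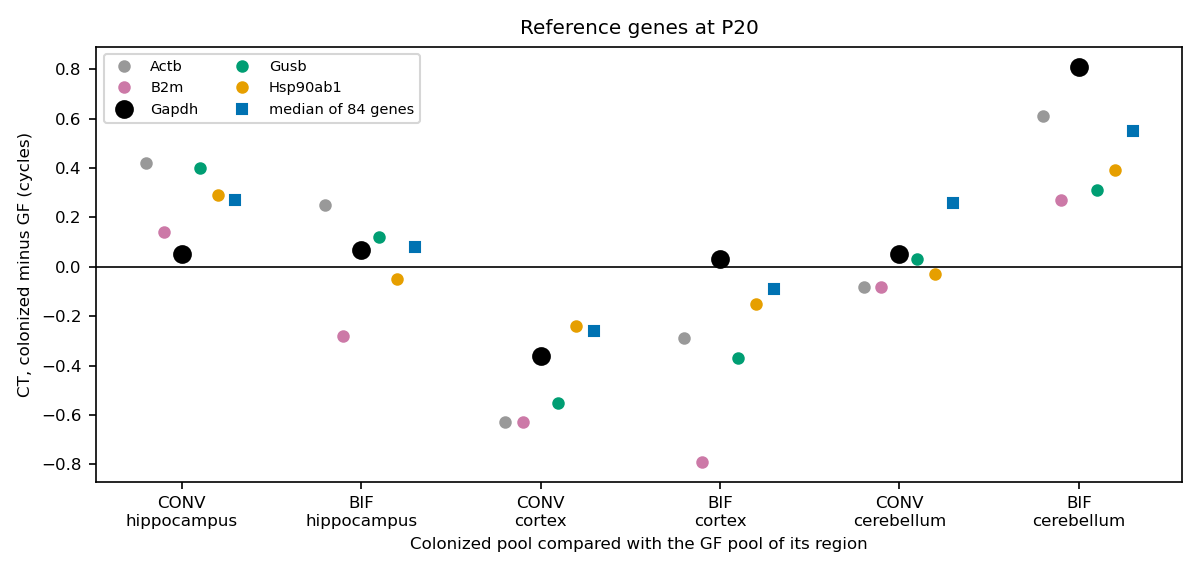
CT of each reference gene, and the median CT of the 84 genes, in a colonized pool minus the GF pool of its region (cycles, 1 pool per group). Gapdh lies above the other reference genes in BIF cortex and BIF cerebellum and below them in CONV hippocampus.

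In CONV hippocampus 1 gene was higher than in GF (1.19% of 84) and 5 were lower (5.95%), while with the mean of 5 reference genes 1 was higher (1.19%) and 0 were lower (0%). In BIF hippocampus 1 was higher (1.19%) and 2 lower (2.38%), against 1 (1.19%) and 4 (4.76%) with the 5 genes. CONV cortex had 6 higher (7.14%) and 4 lower (4.76%), and with the 5 genes 4 higher (4.76%) and 7 lower (8.33%). BIF cortex had 13 higher (15.5%) and 1 lower (1.19%), and with the 5 genes 3 higher (3.57%) and 2 lower (2.38%). CONV cerebellum had 3 higher (3.57%) and 5 lower (5.95%), and with the 5 genes 1 higher (1.19%) and 6 lower (7.14%). BIF cerebellum had 9 higher (10.7%) and 2 lower (2.38%), and with the 5 genes 2 higher (2.38%) and 6 lower (7.14%). The balance of higher and lower genes depended on the reference in CONV and BIF pools alike. In CONV cortex the median of the 84 genes as reference gave 11 higher and 3 lower, and the 4 reference genes without Gapdh gave 3 and 8. In CONV cerebellum these 2 references gave 7 higher and 4 lower, and 1 higher and 8 lower. In CONV hippocampus they gave 1 higher and 0 lower, and 2 higher and 0 lower. In BIF cortex the median of the 84 genes as reference gave 12 higher and 1 lower, close to Gapdh, and the 4 reference genes without Gapdh gave 3 higher and 4 lower. In BIF cerebellum these 2 references gave 2 higher and 4 lower, and 2 higher and 9 lower, so higher genes were in excess with Gapdh only. The median reference was the median CT of each pool, so it did not centre the fold changes. With it the middle log2 fold change of the 84 genes was 0.24 in CONV cortex, 0.20 in CONV cerebellum and 0.18 in BIF cortex. It was -0.04 in CONV hippocampus, 0.06 in BIF hippocampus and -0.03 in BIF cerebellum. The higher genes counted with it in cortex and in CONV cerebellum include this offset. Of the 52 calls, 22 were also past 1.5-fold in the same direction with all 4 references tried: 1 in CONV hippocampus, 2 in BIF hippocampus, 6 in CONV cortex, 4 in BIF cortex, 5 in CONV cerebellum and 4 in BIF cerebellum. A change of reference moves all genes of a comparison by 1 amount. Whether a call held thus depended on its direction as well as on its distance from 1.5-fold, and no call was tested gene by gene. In BIF cortex Ntf5 held at 1.61-fold lower, while Egr3 at 1.87-fold higher did not.

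**Figure D2:**
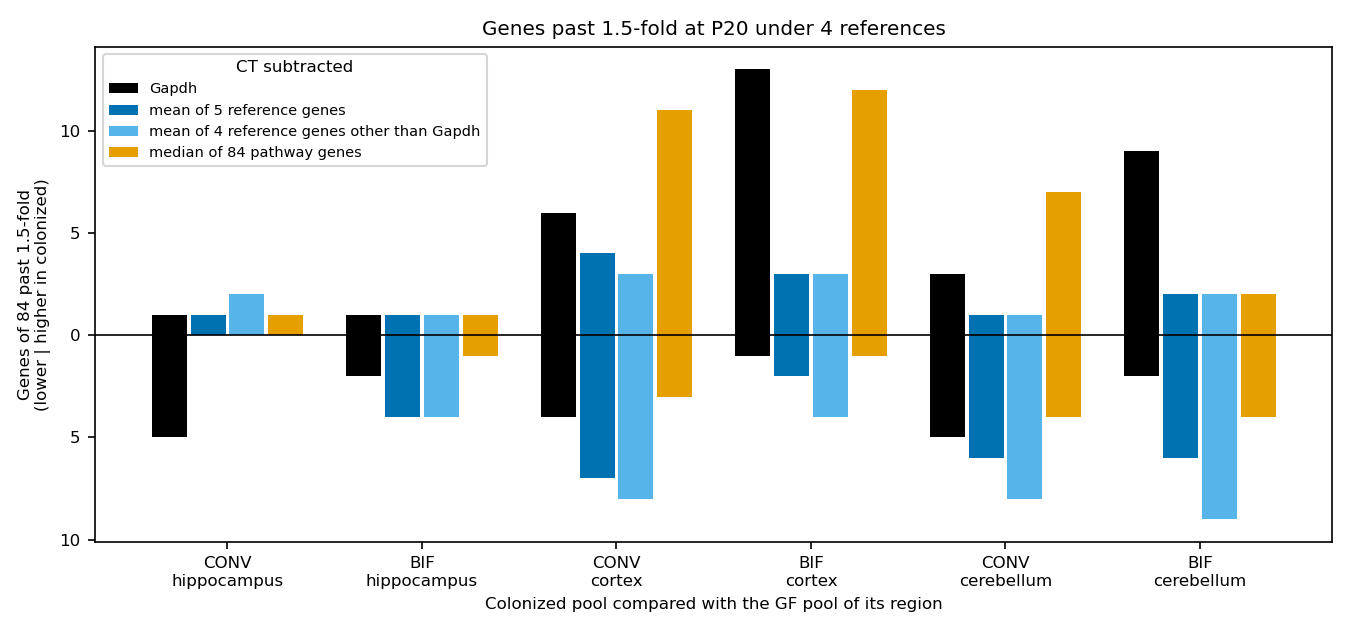
Number of the 84 genes past 1.5-fold in each colonized P20 pool against GF, higher above and lower below the line, with 4 references (colours). In BIF cortex the higher genes number 13 with Gapdh and 3 with the mean of 5 reference genes.

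**Figure D3:**
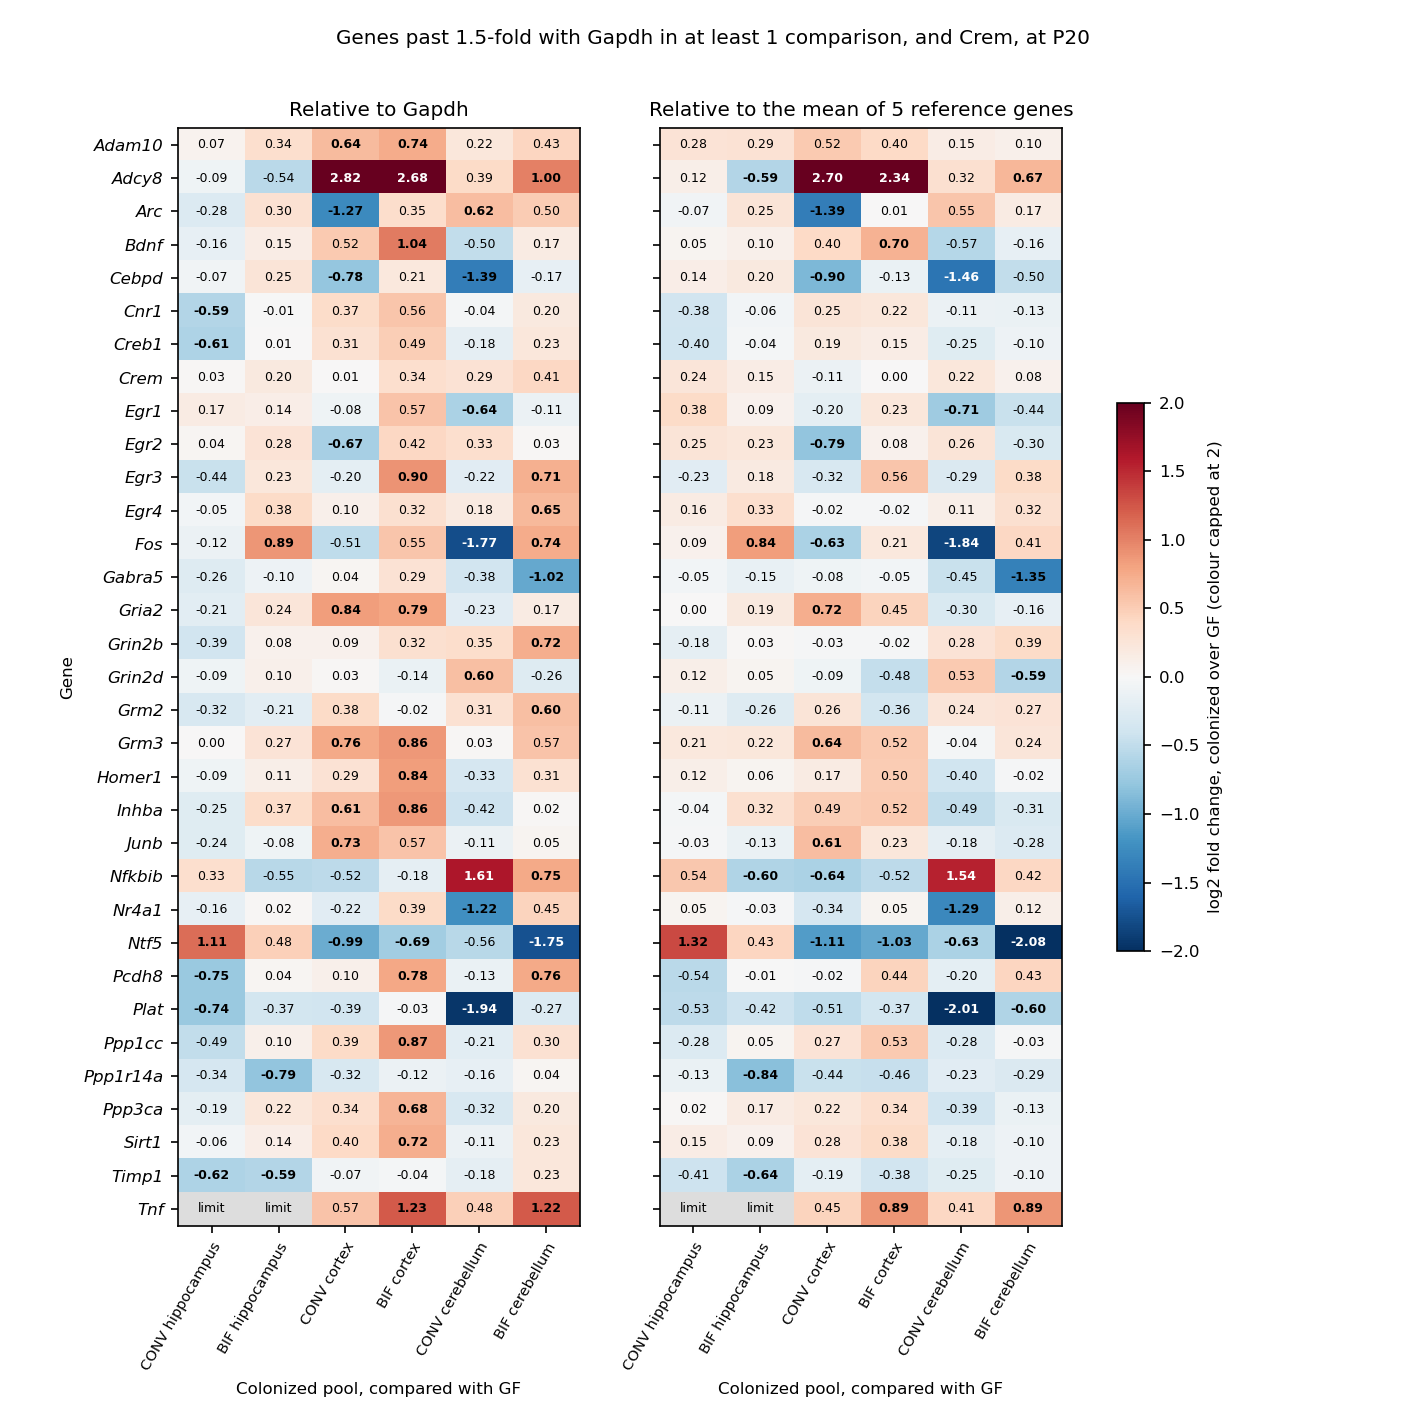
Log2 fold change of colonized over GF at P20 for the 32 genes past 1.5-fold with Gapdh in at least 1 comparison and for Crem, with Gapdh (left) and with the mean of 5 reference genes (right). Bold marks values past 1.5-fold, and grey cells are Tnf at the detection limit in both pools.

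In hippocampus the neurotrophin gene Ntf5, which encodes neurotrophin 4, had a delta CT of 12.74 in GF, 11.63 in CONV and 12.26 in BIF. CONV was 2.16-fold higher than GF, and 2.50-fold with the 5 reference genes, at CTs of 32.41 and 31.35. The GF pool was the lowest of the 3. The 5 lower genes of CONV hippocampus all lay below 1.5-fold with the 5 reference genes. Pcdh8, a protocadherin of activity-regulated adhesion, had delta CTs of 4.05 in GF, 4.80 in CONV and 4.01 in BIF, and was 1.68-fold lower in CONV. Plat, tissue plasminogen activator, had 4.72, 5.46 and 5.09 and was 1.67-fold lower in CONV. Timp1, an inhibitor of matrix metalloproteinases, had 9.67, 10.29 and 10.26. Both colonized pools were thus close to each other and below GF for Timp1, 1.54-fold in CONV and 1.51-fold in BIF. The BIF call was kept with the 5 reference genes, at 1.56-fold, and lost with the median of the 84 genes, at -0.58 on the log2 scale. Creb1, the transcription factor that answers cyclic AMP, had 5.93, 6.54 and 5.92, and was 1.53-fold lower in CONV. Cnr1, the cannabinoid receptor of presynaptic terminals, had 2.83, 3.42 and 2.84, and was 1.51-fold lower in CONV. For Creb1, Cnr1 and Pcdh8 the GF and BIF pools lay together and CONV stood apart.

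In BIF hippocampus the immediate early gene Fos had a delta CT of 7.83, against 8.72 in GF and 8.84 in CONV. It was 1.85-fold higher in BIF than in GF, and 1.79-fold with the 5 reference genes. Ppp1r14a, an inhibitor of protein phosphatase 1 found in the oligodendrocyte lineage among other cells, had 5.20 in GF, 5.54 in CONV and 5.99 in BIF. It was 1.73-fold lower in BIF. These calls held with all 4 references. Adcy8 and Nfkbib also passed with the 5 reference genes, both lower in BIF, at -0.59 and -0.60 on the log2 scale, and with the 4 genes without Gapdh they were at -0.60 and -0.61.

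In cortex the widest difference of the 6 comparisons was that of Adcy8, a calcium-stimulated adenylyl cyclase that makes cyclic AMP. Its delta CT was 11.58 in GF, 8.76 in CONV and 8.90 in BIF. CONV was 7.06-fold and BIF 6.41-fold higher than GF, and 6.49-fold and 5.05-fold with the 5 reference genes. The GF cortex pool stood alone, with a CT of 31.09 from a single well where CONV had 27.91 and BIF 28.44. Among glutamate receptors, the AMPA subunit gene Gria2 had 3.41 in GF, 2.57 in CONV and 2.62 in BIF, 1.79-fold and 1.73-fold higher in the colonized pools. Grm3, a metabotropic receptor of astrocytes and neurons, had 4.63, 3.87 and 3.77, which was 1.69-fold and 1.82-fold higher. GF was the lowest pool for both genes. With the 5 reference genes CONV kept both calls, at 1.64-fold and 1.56-fold, and BIF had 1.36-fold and 1.43-fold.

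Arc, Egr2 and Cebpd were lower in CONV cortex. Arc, a cytoskeletal protein of active dendrites, had a delta CT of 3.95 in GF, 5.22 in CONV and 3.60 in BIF, and was 2.41-fold lower in CONV than in GF. Egr2, a zinc finger transcription factor, had 9.02, 9.69 and 8.60 and was 1.59-fold lower in CONV. Cebpd, a C/EBP transcription factor, had 7.75, 8.53 and 7.54 and was 1.72-fold lower in CONV. In each of these genes CONV was the lowest pool with Gapdh and with the 5 reference genes. BIF was the highest with Gapdh, but with the 5 genes BIF and GF lay together for Arc, at 1.37 and 1.38, and GF was the highest for Cebpd, at 5.18 against 5.31. With the 4 genes without Gapdh, BIF was not above GF for any of the 3, at -0.08, -0.01 and -0.22 on the log2 scale for Arc, Egr2 and Cebpd. The call for CONV was also made with the 5 reference genes, at 2.62-fold for Arc, 1.73-fold for Egr2 and 1.87-fold for Cebpd. That of Egr2 was lost with the median of the 84 genes, at -0.56 on the log2 scale. Junb, a partner of Fos, had 10.36, 9.63 and 9.79 and was 1.66-fold higher in CONV, and 1.52-fold with the 5 genes, but just under 1.5-fold with the 4 genes without Gapdh. Egr3 had 4.96, 5.16 and 4.06, and was 1.87-fold higher in BIF, but 1.47-fold with the 5 reference genes.

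Neurotrophin genes of the cortex split. Bdnf, brain-derived neurotrophic factor, had a delta CT of 6.84 in GF, 6.32 in CONV and 5.80 in BIF, 2.06-fold higher in BIF than in GF, and 1.62-fold with the 5 reference genes. Ntf5 went the other way, at 13.40, 14.39 and 14.09, and was 1.99-fold lower in CONV and 1.61-fold lower in BIF. Its CTs were 32.91 or more. Tnf, a cytokine of microglia among other cells, had CTs of 34.35 in GF, 33.42 in CONV and 33.15 in BIF, close to the limit of 35. It was 2.35-fold higher in BIF than in GF, and 1.85-fold with the 5 reference genes. Adam10, a protease that sheds membrane proteins, had delta CTs of 5.73, 5.09 and 4.99, 1.56-fold and 1.67-fold higher in CONV and BIF. Inhba, a subunit of activin, had 9.34, 8.73 and 8.48, 1.53-fold and 1.82-fold higher. Adam10 and Inhba were under 1.5-fold with the 5 reference genes. Fos, Nfkbib and Ngfr in CONV and Nos1 in BIF became lower genes with them.

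The other higher genes of BIF cortex were between 1.60-fold and 1.83-fold with Gapdh and below 1.5-fold with the 5 reference genes. The phosphatase genes Ppp1cc and Ppp3ca had delta CTs of 3.13 and 0.99 in BIF and 4.00 and 1.67 in GF. Homer1, a scaffold of metabotropic receptors, had 2.60 in BIF and 3.44 in GF, Pcdh8 had 5.01 and 5.79, and Sirt1, a deacetylase, had 6.78 and 7.50. For these 5 genes CONV lay between GF and BIF with Gapdh.

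In cerebellum the lower genes of CONV were the immediate early genes Fos, Nr4a1 and Egr1, with Cebpd and Plat. Other immediate early genes did not share this direction. Of the 9 on the array, 4 lay above GF in CONV with Gapdh, among them Arc, at 0.62 on the log2 scale. Fos had a delta CT of 6.48 in GF, 8.25 in CONV and 5.74 in BIF, and was 3.41-fold lower in CONV than in GF. Nr4a1, an orphan nuclear receptor induced by activity, had 5.85, 7.07 and 5.40 and was 2.33-fold lower in CONV. Cebpd had 6.97, 8.36 and 7.14 and was 2.62-fold lower. For these 3 genes CONV stood below both other pools. Plat had 4.35, 6.29 and 4.62 and was 3.84-fold lower in CONV. Egr1 had 5.48, 6.12 and 5.59 and was 1.56-fold lower, a call that the median of the 84 genes as reference did not keep, at -0.43 on the log2 scale. The other 4 calls held with all 4 references. With the 5 reference genes Ntf5 was also lower in CONV, by 1.55-fold.

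Fos and Nr4a1, both lower in the CONV cerebellum, are classic targets of cyclic AMP and calcium through CREB, and the 250 bases before their start sites are shown, from RefSeq on build GRCm38.p6. Capitals mark the core of the cyclic AMP response element, TGACG or its reverse complement CGTCA, searched on both strands. Fos lies on the plus strand at chr12:85473640-85473889 and held 2 matches, and Nr4a1 on the plus strand at chr15:101266596-101266845 held 4. Of 32851 mouse promoter windows of this length, 17.8% held at least 1 match, 3.9% at least 2 and 0.137% at least 4. The 2 genes were picked as known targets, so the matches do not bear on why they were lower, and the windows of Egr1, Cebpd and Plat, lower in the same pool, were not analysed here.
Fos: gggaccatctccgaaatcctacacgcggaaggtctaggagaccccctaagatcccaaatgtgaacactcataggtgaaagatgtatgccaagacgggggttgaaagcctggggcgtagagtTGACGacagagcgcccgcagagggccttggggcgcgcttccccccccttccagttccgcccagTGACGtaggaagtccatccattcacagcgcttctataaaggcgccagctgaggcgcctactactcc
Nr4a1: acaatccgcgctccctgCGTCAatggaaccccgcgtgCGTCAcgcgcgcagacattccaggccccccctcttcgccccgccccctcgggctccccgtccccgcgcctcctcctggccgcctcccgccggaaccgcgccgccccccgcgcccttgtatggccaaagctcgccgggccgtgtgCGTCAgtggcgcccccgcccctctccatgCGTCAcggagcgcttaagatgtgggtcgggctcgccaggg

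The higher genes of CONV cerebellum were Nfkbib, Arc and Grin2d. Nfkbib, an inhibitor that holds NF-kB in the cytoplasm, had a delta CT of 11.84 in GF, 10.23 in CONV and 11.09 in BIF, and was 3.05-fold higher in CONV, with all 4 references past 1.5-fold. Its CT in GF was 30.83. Arc had 8.16, 7.54 and 7.66 and was 1.54-fold higher in CONV, the opposite of its direction in CONV cortex. Grin2d, an NMDA receptor subunit of early development, had 6.75, 6.15 and 7.01 and was 1.52-fold higher in CONV. Arc and Grin2d were below 1.5-fold with the 5 reference genes.

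In BIF cerebellum Ntf5 had a delta CT of 14.71, against 12.96 in GF and 13.52 in CONV, 3.36-fold lower than GF at a CT of 34.51. Gabra5, a GABA-A receptor subunit, had 10.58 in GF, 10.96 in CONV and 11.60 in BIF, and was 2.03-fold lower in BIF. Adcy8 had 10.10, 9.71 and 9.10, 2.00-fold higher in BIF and 1.59-fold with the 5 reference genes, and at the limit for a call with the 4 genes without Gapdh. Tnf was at the limit of 35 in the GF pool, at 34.57 in CONV and at 34.59 in BIF. Its rise in BIF is thus a lower limit that moves with the reference, 2.33-fold with Gapdh and 1.85-fold with the 5 reference genes. In CONV, at nearly the same CT, Tnf was at 0.48 on the log2 scale with Gapdh and not called. The Gapdh CT was 0.81 cycles later than in GF in BIF and 0.05 in CONV, so the gap between these 2 pools came from the reference. The Tnf CT of 34.59 is later than the 33.81 of the genomic DNA control in the same BIF pool, and the part of genomic DNA in it was not tested. These 4 calls held with all 4 references, and all of them lay at CTs of 28.90 or more. Fos at 1.67-fold, Egr3 at 1.64-fold, Egr4 at 1.57-fold, Pcdh8 at 1.69-fold, Nfkbib at 1.68-fold, Grin2b at 1.65-fold and Grm2 at 1.52-fold were higher with Gapdh and under 1.5-fold with the 5 reference genes. With the 5 genes, Camk2g, Grin2d, Kif17 and Plat became lower in BIF.

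**Figure D4:**
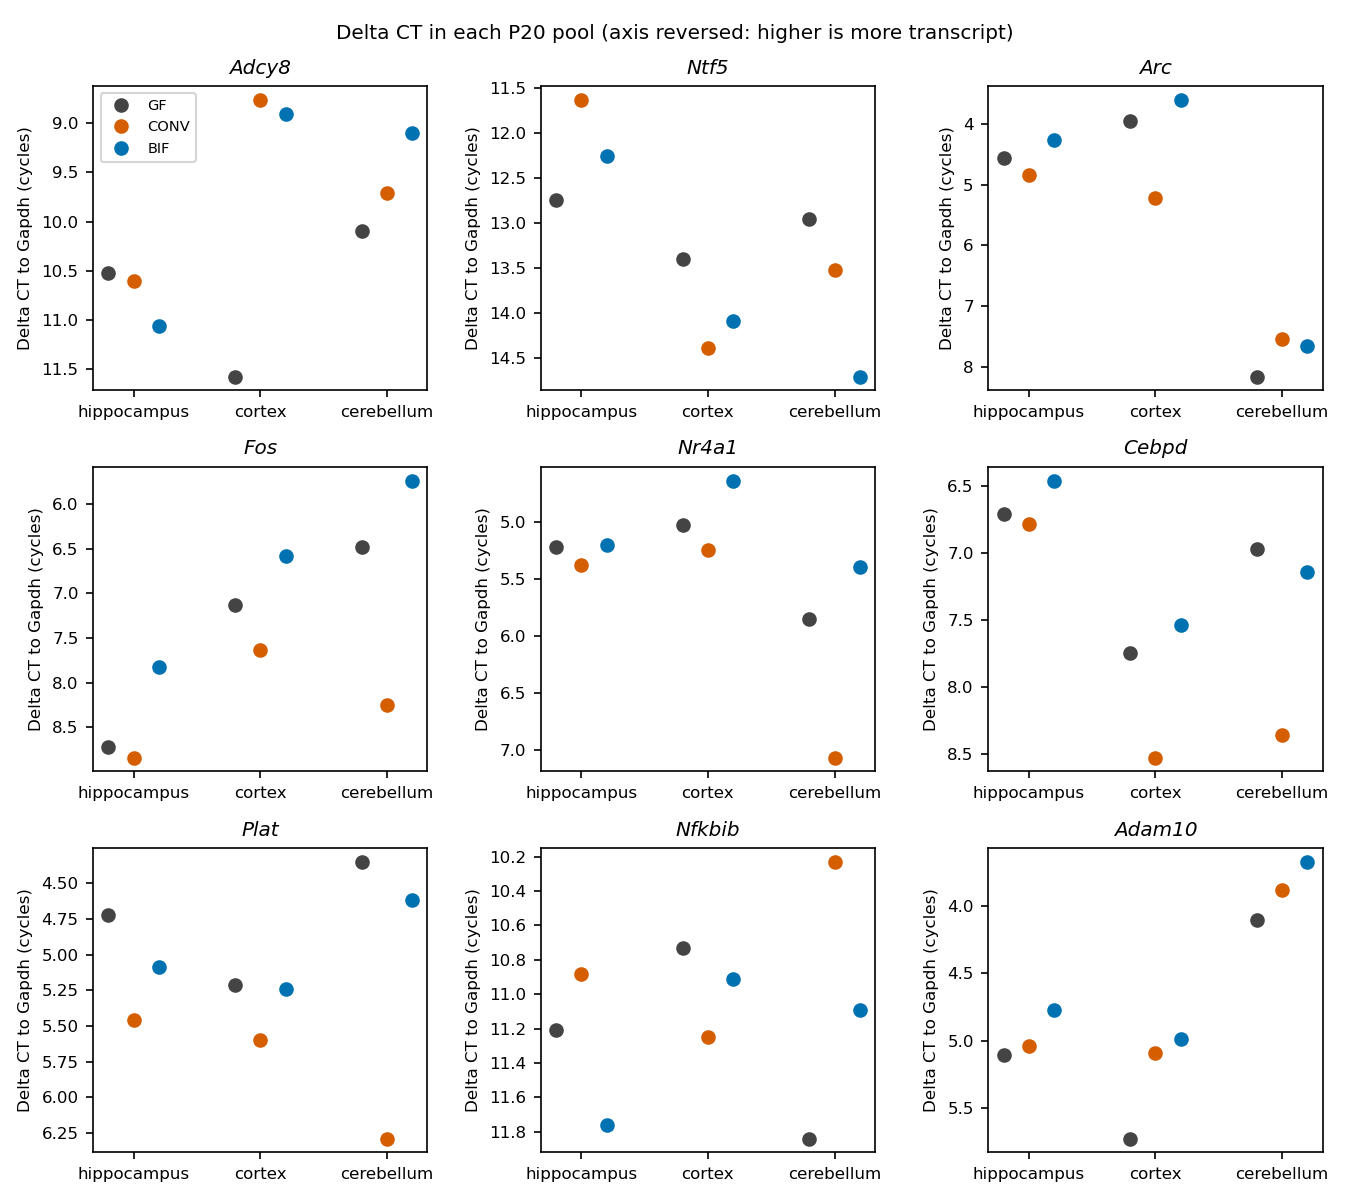
Delta CT to Gapdh (cycles, axis reversed so that higher is more transcript) of 9 genes in each P20 pool, 1 point per pool. Adcy8 in GF cortex stands apart at 11.58, and Fos, Nr4a1, Cebpd and Plat in CONV cerebellum lie below the GF and BIF pools.

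Genes with 1 sign in all 6 comparisons were few: with Gapdh, 3 were higher in every colonized pool (3.57%), Adam10, Crem and Tnf, and 1 was lower, Plat (1.19%). The comparisons of a region share the GF pool, so their signs are not independent. The regions of a treatment share an isolator and may share mice, so signs may be dependent across regions too. With the 5 reference genes the counts were 2 higher (2.38%), Adam10 and Tnf, and 8 lower (9.52%), Gabra5, Gnai1, Nptx2, Plat, Ppp1r14a, Prkca, Synpo and Timp1. Tnf cannot be counted on, since in hippocampus all 3 pools were at the limit of 35 and its sign there came from the reference genes alone. Adam10 and Plat were left, with the same sign under all 4 references, though Adam10 in BIF cerebellum was at 0.01, nearly 0, with the 4 genes without Gapdh. Adam10 was higher than GF by 0.07 in CONV hippocampus, 0.34 in BIF hippocampus, 0.64 in CONV cortex, 0.74 in BIF cortex, 0.22 in CONV cerebellum and 0.43 in BIF cerebellum on the log2 scale. With the 5 reference genes these were 0.28, 0.29, 0.52, 0.40, 0.15 and 0.10. Only the cortex values passed 1.5-fold, with Gapdh and with the median of the 84 genes (0.74 in CONV and 0.62 in BIF), and not with the 5 or 4 reference genes. Plat gave -0.74, -0.37, -0.39, -0.03, -1.94 and -0.27 in the same order with Gapdh, and -0.53, -0.42, -0.51, -0.37, -2.01 and -0.60 with the 5 genes. Its size varied widely, and the value for BIF cortex was nearly 0 with Gapdh. Crem, a modulator of CREB, gave 0.03, 0.20, 0.01, 0.34, 0.29 and 0.41 with Gapdh, but -0.11 in CONV cortex with the 5 genes. All values for Crem with Gapdh, and all for Adam10 but that of BIF cortex, lay within 2 SD of the control wells at the larger estimate, 0.64. At the smaller, 0.42, Adam10 was past it in CONV cortex and BIF cerebellum too. Crem was named by its place on the array alone, as were 22 of the 84 genes, and no gene called against GF was among them. That absence follows from the naming, since the study's list holds the genes past 1.5-fold. Of the genes called, 5 (Cnr1, Grin2b, Grm2, Ppp1cc and Sirt1) were named by a value that other wells matched too.

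Few genes of the array mark other cells of the tissue, and none names a cell type here. Igf1, made by microglia among other cells, had a delta CT of 8.02 in GF cortex, 7.71 in CONV and 7.56 in BIF, and 7.28, 7.75 and 7.15 in hippocampus. Ntrk2, the receptor of Bdnf and Ntf5 in neurons and astrocytes, had 2.49 in GF cortex, 1.96 in CONV and 2.10 in BIF. With Gapdh it was thus higher in the colonized cortex pools, like Grm3, but below 1.5-fold. Ngfr, of the oligodendrocyte lineage and of neurons, had 10.49, 11.04 and 10.45 in cortex, where CONV was the lowest. Ppp1r14a had 5.74, 6.06 and 5.86 in cortex, with GF the highest pool and no call. The part of these cells in the differences of other genes was not tested.

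Over the 6 comparisons, 52 of the 504 values were called with Gapdh (10.3%) and 37 with the 5 reference genes (7.34%), and each group of genes by role is set beside these shares. The 9 immediate early genes had 12 of 54 called (22.2%), and 8 with the 5 genes (14.8%), and medians between -0.22 in CONV cortex and 0.45 in BIF cerebellum. CONV cortex had 1 higher and 2 lower (7.14% and 4.76% over all 84 genes), CONV cerebellum 1 higher and 3 lower (3.57% and 5.95%), and BIF cerebellum 3 higher (10.7%). BIF hippocampus had 1 higher, where 1.19% of all 84 genes were higher, and BIF cortex had 1 higher, where 15.5% were. In the next sentence, too, brackets hold the share over all 84 genes. Against the 5 reference genes these were 1 higher and 3 lower in CONV cortex (4.76% and 8.33%), 0 and 3 in CONV cerebellum (1.19% and 7.14%), 0 higher in BIF cerebellum (2.38%), 1 in BIF hippocampus (1.19%) and 0 in BIF cortex (3.57%). With them the median in BIF cerebellum was 0.12, where the 84 genes had -0.10. Inducible effector genes, 10 in number, had 9 of 60 called (15.0%), and 3 with the 5 genes (5.00%), and medians from -0.28 in CONV hippocampus, with 2 lower (5.95% over all 84), to 0.55 in BIF cortex, with Bdnf, Homer1, Inhba and Pcdh8 as 4 higher (15.5%), where the 84 genes had -0.26 and 0.30. These 2 medians were -0.07 and 0.20 with the 5 reference genes, where the 84 genes had -0.05 and -0.04, and 0 were lower in CONV hippocampus (0%) and 1 higher in BIF cortex (3.57%). CREB, C/EBP, NF-kB and other regulators of transcription, 9 genes, had medians from -0.07 to 0.23, and 6 of 54 values called (11.1%), in Creb1, Cebpd, Nfkbib and Sirt1, against 5 with the 5 genes (9.26%).

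The 4 AMPA subunits had medians from -0.29 in CONV hippocampus to 0.39 in BIF cortex, where the 84 genes had -0.26 and 0.30. Gria2 in the 2 cortex comparisons made up their 2 calls of 24 (8.33%), and with the 5 reference genes 1 was left (4.17%), that of CONV. The 5 NMDA subunits had medians from -0.19 to 0.28 and 2 calls of 30 (6.67%), Grin2d higher in CONV cerebellum and Grin2b in BIF cerebellum. Both were lost with the 5 genes, and Grin2d was then lower in BIF cerebellum, as the 1 call (3.33%). The 7 metabotropic receptors had medians from -0.30 to 0.40 and 3 calls of 42 (7.14%), Grm3 higher in the 2 cortex comparisons and Grm2 in BIF cerebellum, of which the 5 genes left 1 (2.38%), Grm3 in CONV. Scaffold and adhesion genes, 9 in all, had medians from -0.32 in CONV hippocampus to 0.27 in BIF cerebellum and 4 calls of 54 (7.41%), in Pcdh8 and Homer1, and 0 with the 5 genes (0%). Over the 6 comparisons the medians of all 84 genes ran from -0.26 to 0.30.

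Neurotrophins and their receptors, 6 genes, had medians from -0.30 in CONV cortex to 0.16 and 5 calls of 36 (13.9%), in Ntf5 and Bdnf, and 7 with the 5 genes (19.4%), with Ngfr in CONV cortex and Ntf5 in CONV cerebellum added. The 5 genes of cyclic AMP signalling had medians from -0.25 to 0.34 and 4 calls of 30 (13.3%), Adcy8 higher and Creb1 lower. With the 5 reference genes there were 4 (13.3%), all in Adcy8, of which 3 were higher and 1, in BIF hippocampus, was lower. The 8 kinases and phospholipase had medians from -0.30 to 0.21 and 0 calls of 48 with Gapdh (0%), and 1 with the 5 genes (2.08%), Camk2g lower in BIF cerebellum. The 5 phosphatases and their regulator had medians from -0.27 to 0.56, the highest in BIF cortex, and 3 calls of 30 (10.0%). Ppp1cc and Ppp3ca were higher in BIF cortex and Ppp1r14a lower in BIF hippocampus, and the 5 genes left only Ppp1r14a (3.33%). The 5 extracellular proteases with their inhibitor and matrix protein had medians from -0.27 to 0.23 and 6 calls of 30 (20.0%), in Adam10, Plat and Timp1, and 3 with the 5 genes (10.0%), in Plat and Timp1. Inhibitory and modulatory genes, 3 in number, had medians from -0.26 to 0.29 and 2 calls of 18 (11.1%), Cnr1 and Gabra5, and 2 with the 5 genes (11.1%), Gabra5 and Nos1. Their median in BIF cerebellum was -0.17 with Gapdh and -0.50 with the 5 genes, where the 84 genes had 0.23 and -0.10. The 4 inflammatory genes had medians from -0.10 to 0.47 and 4 calls of 24 (16.7%), in Tnf and Nfkbib, all higher. With the 5 genes there were 5 (20.8%) in the same 2 genes, but of mixed direction. Nfkbib was then lower in BIF hippocampus, at -0.60, and in CONV cortex, at -0.64, and its call in BIF cerebellum was lost.

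The colonized groups were also set against each other, which leaves out the GF pool. In hippocampus 9 genes were higher in BIF than in CONV (10.7%) and 2 lower (2.38%), and with the 5 reference genes 1 (1.19%) and 6 (7.14%). Fos was highest in BIF relative to CONV, 2.01-fold, and Nfkbib lowest, 1.84-fold. In cortex 10 were higher (11.9%) and 0 lower (0%), and with the 5 genes 5 (5.95%) and 2 (2.38%). Arc was 3.07-fold higher in BIF, and 2.64-fold with the 5 genes. Fos, Egr2, Egr3 and Cebpd were also past 1.5-fold with both references. The lowest in BIF cortex was Grip1, 1.35-fold with Gapdh and so not called. In cerebellum 11 were higher (13.1%) and 5 lower (5.95%), and with the 5 genes 7 (8.33%) and 6 (7.14%). Fos was 5.70-fold higher in BIF, and 4.76-fold with the 5 genes, and Ntf5 2.28-fold lower. Fos was thus higher in BIF than in CONV in all 3 regions, past 1.5-fold with both references. Gria1, Igf1 and Ywhaq, among the genes past 1.5-fold here, were named by place on the array.

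At P10, 10 days earlier, the same genes were read on other plates, so only their values are set side by side. Adcy8 in cortex had a delta CT of 8.74 in GF, 8.98 in CONV and 8.68 in BIF at P10. The 3 pools lay within 0.30 cycles at P10, and at P20 the GF pool was at 11.58 and the colonized pools near their earlier level with Gapdh. Other references were not tried across the ages. From P10 to P20 the level of Actb against Gapdh changed in CONV cortex by -1.38 cycles. Gusb changed by -0.77, Hsp90ab1 by -0.68 and B2m by 0.16, so nearness to the earlier level depends on the reference. Gria2 in cortex had 2.44, 2.59 and 2.09 at P10, where GF was not the lowest. Fos in cerebellum had 7.72 in GF, 6.83 in CONV and 7.52 in BIF at P10, so CONV was the highest pool then and the lowest at P20. Plat in cerebellum had 4.06, 4.07 and 3.89, within 0.18 cycles, before CONV stood at 6.29 at P20. Cebpd in cerebellum had 8.84, 8.89 and 8.74. Arc in cortex had 5.63 in GF, 6.65 in CONV and 6.39 in BIF at P10, where CONV was already the lowest pool.

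**Figure D5:**
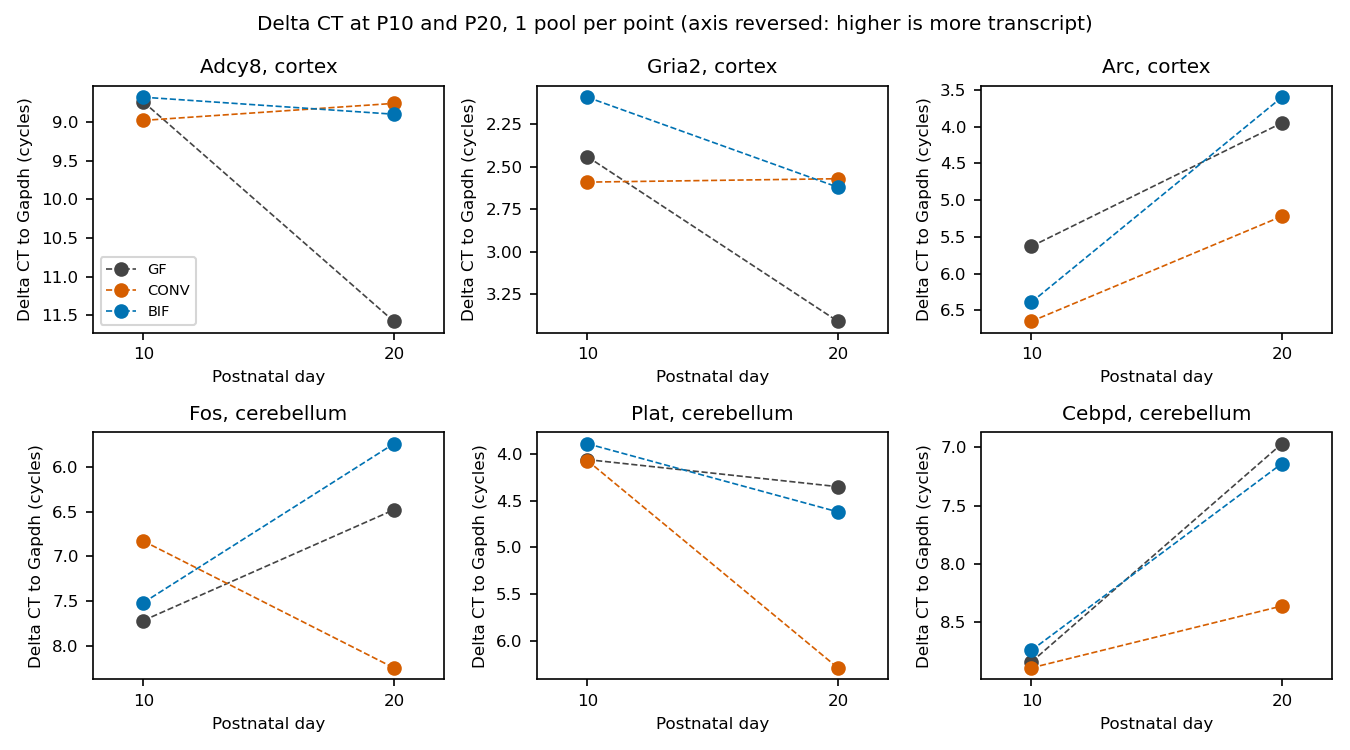
Delta CT to Gapdh (cycles, axis reversed) at P10 and P20 for 6 gene and region pairs, 1 pool per point, with dashed lines joining pools of different mice and plates. Adcy8 in cortex is alike in the 3 groups at P10, and GF alone is at 11.58 at P20.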

How the data were processed

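The authors deposited raw threshold cycles (CT), a unit of PCR cycles, per well of a 96-well synaptic plasticity array, with a limit of 35 and no normalization, per the file headers and labels. A second deposited table holds the authors' own fold changes of colonized over germ-free pools, and was not used. Wells were named from the study's gene list and, for 62 of the 84 genes, by a fold change listed for the gene that matched the well within 2 percent plus 0.01. For 13 of these the match was shared with other wells, and 22 genes were named by place. Log2 fold changes were delta-delta CT with Gapdh, or with 3 other references, and calls were 1.5-fold. Every gene called with Gapdh is named, with genes of 1 sign in all 6 comparisons and the extremes of BIF against CONV. Members and lists were chosen with earlier results of these data known. 1 further marker that was checked is counted among the 84 genes but not reported here. The calculation was tested on simulated data. Python 3.11.15, pandas 2.3.3, numpy 2.4.6 and matplotlib 3.10.9 were used.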

Additional observations from a re-analysis of the deposited data

Results flagged for a closer look

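Arc and Ntf5 moved in opposite directions in different regions of the same CONV group. Arc was higher than GF in CONV cerebellum, by 0.62 on the log2 scale, and lower in CONV cortex, at -1.27. Ntf5 was higher in CONV hippocampus, by 1.11, and lower in CONV cortex, at -0.99. Each value is 1 pool against 1 pool, and the difference between regions was not tested. The CTs of Ntf5 were above 31 in all of these pools. With the mean of 5 reference genes Arc in cerebellum was below 1.5-fold, at 0.55.

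The genomic DNA control well is outside the comparisons. It read 34.85 in the BIF hippocampus pool and 33.81 in the BIF cerebellum pool, where the other 7 P20 pools were at the limit of 35. Its part in the weakest genes of these pools was not tested.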

How the results depend on the processing

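Each group is 1 pool, and no test and no paired analysis over the regions was made. Counts against GF are given as higher and lower genes where they moved by more than 1.5 times. With the mean of 5 reference genes, the lower genes numbered 0 in CONV hippocampus, 4 in BIF hippocampus, 7 in CONV cortex, 2 in BIF cortex and 6 in BIF cerebellum, and the higher genes 3 in BIF cortex, 1 in CONV cerebellum and 2 in BIF cerebellum. The median of the 84 genes became -0.04 in BIF cortex and -0.10 in BIF cerebellum. With 4 reference genes, without Gapdh, the lower genes numbered 0 in CONV hippocampus, 4 in BIF hippocampus, 8 in CONV cortex, 4 in BIF cortex, 8 in CONV cerebellum and 9 in BIF cerebellum, and the higher genes 2 in CONV hippocampus, 3 in CONV cortex, 3 in BIF cortex, 1 in CONV cerebellum and 2 in BIF cerebellum. These medians became -0.13 in BIF cortex and -0.18 in BIF cerebellum. With the median of the 84 genes as reference, the lower genes numbered 0 in CONV hippocampus, 1 in BIF hippocampus and 4 in BIF cerebellum, and the higher genes 11 in CONV cortex, 7 in CONV cerebellum and 2 in BIF cerebellum. With CTs of 30 or below in both pools, fewer genes could be called, and 0 were higher in CONV hippocampus, 0 lower in BIF cortex and 0 lower in BIF cerebellum. For BIF over CONV, the 5-gene and 4-gene references each gave 1 higher and 6 lower in hippocampus. In cortex they gave 5 higher each, with 2 and 3 lower. In cerebellum they gave 7 and 6 higher. The median reference gave 1 higher and 6 lower in hippocampus, 5 and 2 in cortex, and 4 and 12 in cerebellum. The CT filter left 0 lower in hippocampus and 1 in cerebellum.

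Genes higher in all 6 comparisons numbered 7 with the median reference and 20 without the hippocampus (4 comparisons). Genes lower in all 6 numbered 8 with each of the 5-gene and 4-gene references, 2 without the hippocampus, and 4 without the cortex or without the cerebellum. With fewer comparisons, fewer values have to share a sign. Leaving out the BIF cerebellum pool, an alternative chosen after seeing the data, gave 4 lower. Leaving out genes at the limit in both pools, also chosen after seeing the data, removed Tnf and left 2 higher. A change of reference moves all genes of a comparison by 1 amount, so it tests no single gene. For the counts that moved, the cause was not tested. The data cannot separate treatment from isolator or give the scatter between mice.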
